A study of Saccharomyces cerevisiae with 63 samples.

Results

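The glycolytic enzyme genes of budding yeast were followed as mRNA through meiosis in diploid cells of the SK1 background. They were chosen by name, with 1 gene for each step from glucose 6-phosphate to pyruvate and both subunits of phosphofructokinase: PGI1, PFK1, PFK2, FBA1, TPI1, TDH3, PGK1, GPM1, ENO1 and CDC19. Of these 10 genes, 9 are described here, among 6088 genes in the table, and all 9 passed the filter on low counts that 5822 genes passed. TDH3 was not analysed here. On the R64 reference the 9 genes lie on 7 chromosomes: PGI1 at chrII:612236-613900, PFK1 at chrVII:970771-973734, PFK2 at chrXIII:671887-674766, FBA1 at chrXI:326408-327487, TPI1 at chrIV:555726-556472, PGK1 at chrIII:137746-138996, GPM1 at chrXI:163642-164385, ENO1 at chrVII:1000927-1002240 and CDC19 at chrI:71786-73288. Polyadenylated RNA was sequenced from an ime4 mutant, a pho92 mutant and a control strain called WT, at 0, 2, 3, 5, 6, 7 and 9 h in sporulation medium with 0.3% potassium acetate, with 3 biological replicates per strain and time. In all 3 strains, controls included, a copper-inducible promoter drives IME1, the master inducer of meiosis, and the inducer, copper sulfate at 50 µM, was given at 2 h. Cells came from growth on acetate. IME4 encodes an mRNA adenosine methyltransferase and PHO92 a protein that binds methylated mRNA; the labels call both strains mutants without giving the allele.

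Glycolysis converts glucose to pyruvate, and most of its enzymes also work in the reverse direction, so that cells growing on acetate use them to make sugar phosphates. The steps of phosphofructokinase and pyruvate kinase are the exceptions and are bypassed by separate enzymes in gluconeogenesis. In fermenting yeast these genes give some of the most abundant mRNAs in the cell, and the DNA-binding proteins Rap1 and Gcr1 activate many of them together. Spore formation draws on sugar phosphates for storage carbohydrate and for the spore wall.

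Library totals lay between 12826747 and 33048881 counts (median 16834032). IME4 lay between 0 and 2.37 CPM (counts per 1000000 of the scaled library size) in the 21 ime4 libraries, against 37.4 to 366 CPM in the 21 WT libraries. PHO92 lay between 0 and 4.27 CPM in the pho92 libraries, against 4.42 to 2232 CPM in the WT libraries, so neither gene's groups overlapped. All 6 meiotic markers examined were detected in every library, with a sum of 118 to 21398 CPM. The sum of 6 haploid-specific genes, which diploids repress, was 38.1 to 50.7 CPM at 0 h in all strains. At 7 h it was 176 to 248 CPM in ime4 cells and 336 to 726 CPM in pho92 cells, against 1165 to 1398 CPM in WT cells. Over all libraries STE18 and STE5 peaked at 794 and 568 CPM, while HO, RME1, FUS3 and GPA1 peaked at 28.6, 52.9, 50.1 and 87.0 CPM. The sum thus does not show a rise of the whole set, and its part in the results was not tested. The courses were not in step: at 7 h NDT80, the activator of the middle meiotic genes, averaged 1009.9 ± 459 CPM in ime4 cells and 3369.9 ± 923 CPM in pho92 cells, against 6269 ± 229 CPM in WT cells (SD, n = 3 each). At a given clock time, strain and progress through meiosis therefore cannot be told apart. In the values of the 9 genes, single libraries stood apart at 9 h in WT (replicate 1), 7 h in ime4 (replicate 2) and 3 h and 2 h in pho92 (replicates 3 and 1). They were picked after the values were seen, and results that rest on them are given with and without them. Over all genes the replicates that differed most were 1 and 3 of pho92, at 6 h (chi-square per degree of freedom 665) and at 7 h (488). No single library of those times was left out alone. Where no time is named, leaving out replicate 1, 2 or 3 of a strain means leaving it out at all times.

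At the start of the course the 9 genes covered a wide range of levels. Per length of the gene model, WT cells at 0 h held most mRNA of FBA1, fructose-bisphosphate aldolase, at 9509 ± 699 CPM per kb (SD, n = 3). Next came ENO1, an enolase, at 8686 ± 510.5, GPM1, phosphoglycerate mutase, at 7093 ± 587, and PGK1, phosphoglycerate kinase, at 4195 ± 282 CPM per kb. TPI1, triose-phosphate isomerase, stood at 3459 ± 316 and CDC19, the main pyruvate kinase, at 2377 ± 430.5 CPM per kb. The enzymes of the first steps were lower: PGI1, glucose-6-phosphate isomerase, had 515 ± 87.0 CPM per kb, and the phosphofructokinase subunits PFK1 (alpha) and PFK2 (beta) had 211 ± 40.6 and 161 ± 26.8 CPM per kb. Among neighbours in this order, the means of FBA1 and ENO1 and those of PFK1 and PFK2 differed by less than the sum of their SDs, and the libraries overlapped for PFK1 and PFK2 alone. The enzymes from aldolase downward thus made up nearly all of the mRNA of the group, with FBA1 at 26.3%, ENO1 at 24.0% and GPM1 at 19.6% of the summed level per kb. ENO1 carries an uncertainty: 23.6% of its 50-base stretches also occur elsewhere in the R64 genome, its coding sequence is 94.8% identical to that of ENO2, and the deposited gene model covers 76.0% of the annotated gene. The other 8 genes share 0 such stretches with the rest of the genome, and 0 annotated genes overlap any of the 9.

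The main event of the course was a collapse of the whole group in the hour after copper was added. The 9 genes together held 0.0919% ± 0.0125 (SD, n = 3) of all counts in WT at 3 h, against 1.70% ± 0.224 at 2 h and 3.44% ± 0.207 at 0 h. All 9 were lower at 3 h than at 2 h in WT by edgeR's quasi-likelihood test, where 29.3% of all genes tested were called lower. The median log2 change was -4.96 over the 9 genes and 0.10 over all genes tested. In bulk RNA, fewer cells expressing a gene and less of its RNA per cell cannot be told apart.

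The enzymes from aldolase downward fell most. FBA1 had 131, 65.6 and 127 CPM in the 3 WT libraries at 3 h, against 5050.2, 5159 and 6172 CPM at 2 h, and fell by 5.66 ± 0.53 on the log2 scale (SE; edgeR adjusted p = 7.11e-13). ENO1 had 58.9, 41.5 and 42.3 CPM at 3 h, against 2729.5, 2934 and 4018 CPM at 2 h, a fall of the same order (log2 fold change -6.08 ± 0.43, edgeR adjusted p = 3.66e-16). CDC19, whose enzyme makes pyruvate, had 76.1, 59.0 and 66.1 CPM at 3 h, against 1077, 833 and 1249 CPM at 2 h, with a log2 fold change of -3.97 ± 0.32 (edgeR adjusted p = 1.59e-14). Every 3 h library lay far below every 2 h library for each of these genes. The log2 fold changes of TPI1, PGK1 and GPM1 were -4.96, -5.48 and -5.19, and that of PGI1 was -3.61. The phosphofructokinase subunits changed least. PFK1 had 167, 144 and 136 CPM at 3 h, against 669, 615 and 680.2 CPM at 2 h (log2 fold change -2.13 ± 0.24, edgeR adjusted p = 1.5e-10), and PFK2 had 144, 136 and 138 CPM at 3 h, against 577, 558 and 638 CPM at 2 h (-2.09 ± 0.22, edgeR adjusted p = 2.05e-11). With this the order of levels changed: at 3 h in WT, FBA1 still led with 99.9 ± 34.0 CPM per kb, but PFK1 with 50.3 ± 5.29 and PFK2 with 48.3 ± 1.31 CPM per kb now stood beside ENO1 with 47.6 ± 9.86 CPM per kb.

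**Figure D1:**
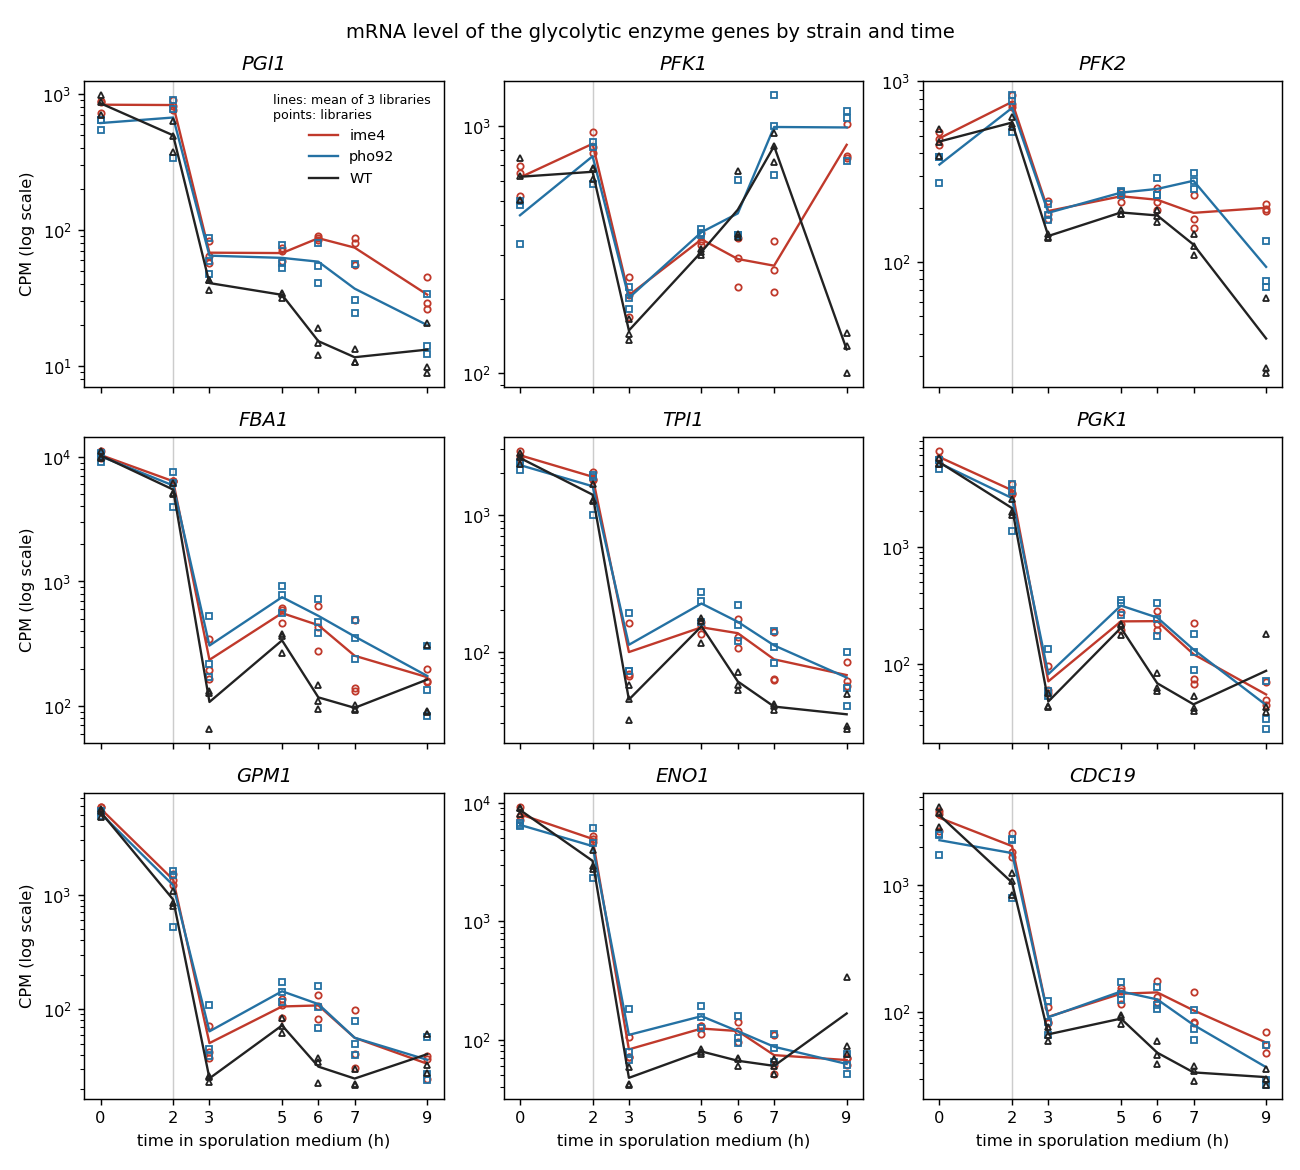
CPM of the 9 glycolytic enzyme genes (y, log scale) against time in sporulation medium in hours (x), with lines through the mean of 3 libraries and points for single libraries of ime4, pho92 and WT; the grey line marks the addition of copper. All 9 genes drop between 2 and 3 h in every strain, and PFK1 alone among them climbs back above its 0 h mean in WT with TMM scaling (its steps for 6 h versus 5 h and 7 h versus 6 h were not called on total counts), to 831 CPM at 7 h.

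The fall was seen in both mutants as well. In ime4 cells all 9 genes were lower at 3 h than at 2 h (median log2 fold change -4.47; 27.4% of all genes were called lower), and so were all 9 in pho92 cells (median -4.24; 26.5% of all genes). FBA1 had 195, 346 and 164 CPM in ime4 cells at 3 h, against 6414, 6353 and 6350.3 CPM at 2 h, and 171, 216 and 531 CPM in pho92 cells at 3 h, against 3950.3, 7508 and 6219.7 CPM at 2 h. The high value at 3 h in pho92 is replicate 3, without which the log2 fold change of FBA1 was -4.93 in place of -4.27. The change between 2 and 3 h was tested against that of WT itself. By edgeR 0 of the 9 genes differed in ime4, where 0.859% of all genes did, and 0 differed in pho92, where 0.653% did. With so few of all genes called, 0 of 9 is not read as particular to the group. At an unadjusted p under 0.05 the numbers were 0 in ime4 and 2 in pho92, and DESeq2 called 0 in each. Shares of all genes are given throughout for the main edgeR fit at adjusted p under 0.05 only. Counts under other methods, thresholds or scalings show how far the calls moved, and nothing particular to the group. The widest difference was that of FBA1 in pho92, 1.39 ± 0.61 on the log2 scale (edgeR adjusted p = 0.288), and 0.73 without pho92 replicate 3 at 3 h.

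**Figure D2:**
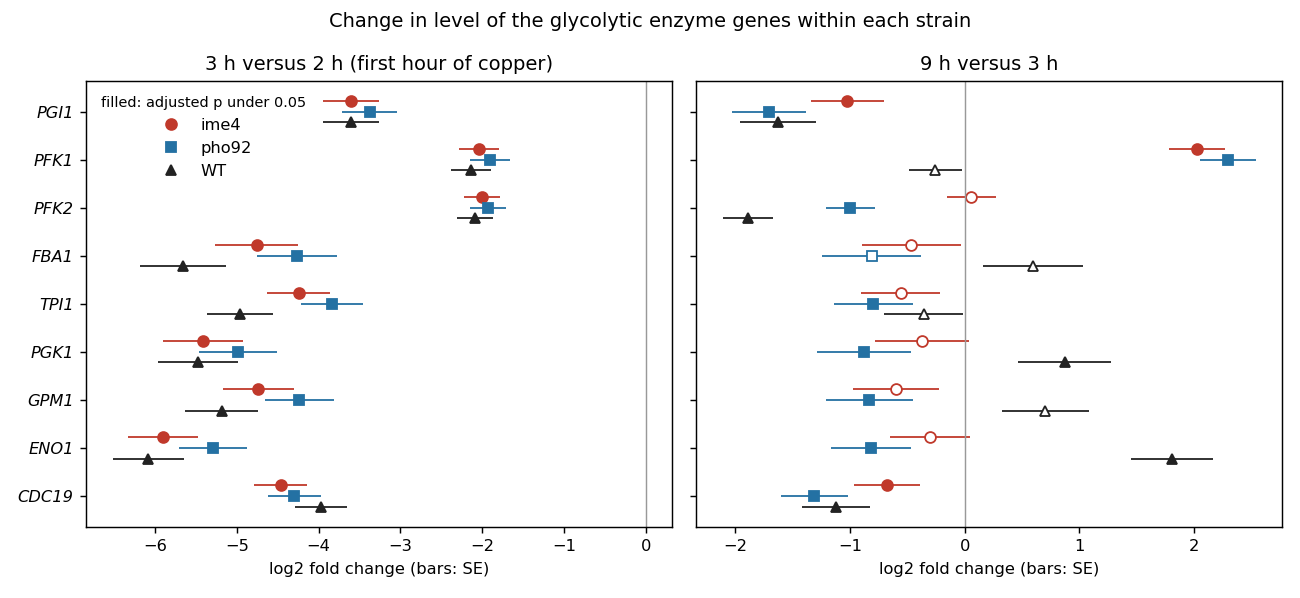
Log2 fold change of each gene (x, bars are SE from the edgeR fit) within ime4, pho92 and WT for 3 h versus 2 h (left) and 9 h versus 3 h (right), filled where the adjusted p was under 0.05. On the left every point lies left of 0, with PFK1 and PFK2 the nearest to it; on the right PFK1 lies at 2.02 in ime4, 2.29 in pho92 and -0.26 in WT.

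Some of the genes had already fallen during the 2 h before copper. In WT, 6 of the 9 were lower at 2 h than at 0 h, where 30.4% of all genes were called lower. GPM1 led with 798, 852 and 1069 CPM at 2 h, against 4791, 5404 and 5636 CPM at 0 h (log2 fold change -2.54 ± 0.39, edgeR adjusted p = 3.24e-07), and the libraries of both times were far apart. CDC19 (-1.76), ENO1 (-1.43), PGK1 (-1.30), TPI1 (-0.89) and PGI1 (-0.78) were the others called. FBA1 at -0.91 ± 0.43 missed the threshold (edgeR adjusted p = 0.0694), and PFK1 at 0.07 ± 0.23 and PFK2 at 0.35 ± 0.21 were not called. Without WT replicate 2, TPI1 (-0.80), PGI1 (-0.64) and PGK1 (-1.22) were not called, TPI1 and PGI1 also not without replicate 1 and TPI1 not without replicate 3. Total counts alone, where the median of all genes was 0.19, gave 1 higher and 4 lower, the higher one being PFK2. No share of all genes is given for that scaling, so the split shows only how the calls moved.

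The 600 bases before each start codon were searched on both strands in the R64 genome for the Gcr1 core CTTCC, the Rap1 core ACCCNNACA and the stress element CCCCT. All 10 genes of the group were included, with TDH3 for its promoter alone. The Gcr1 core occurred in 9 of the 10 genes, against 72.9% of 5999 windows of all genes, and the stress element in 5 of 10, against 39.7%. The Rap1 core occurred in 6 of 10, against 6.45% of the windows. A Rap1 core with a Gcr1 core within 60 bases occurred in 4 of the 10 (PFK2, PGK1, GPM1 and ENO1), against 1.82% of the windows. These 4 stretches are shown, with 12 bases on each side, because they hold both activators' core letters close together; the capitals mark the nearest pair of cores, and GGAAG is CTTCC read on the other strand. The last bases shown for PGK1 hold a further CTTCC, left in lower case.
PFK2 (chrXIII:675237-675306, minus strand): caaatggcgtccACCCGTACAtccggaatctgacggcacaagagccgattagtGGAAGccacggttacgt
PGK1 (chrIII:137262-137306, plus strand): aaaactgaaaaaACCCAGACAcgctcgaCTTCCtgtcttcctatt
GPM1 (chrXI:164726-164791, minus strand): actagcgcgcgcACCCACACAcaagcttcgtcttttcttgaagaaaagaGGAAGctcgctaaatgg
ENO1 (chrVII:1000432-1000480, plus strand): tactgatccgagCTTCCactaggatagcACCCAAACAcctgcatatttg
The gap between the cores is 7 bases in PGK1, 11 in ENO1, 28 in GPM1 and 32 in PFK2. The log2 fold changes of these 4 genes for 3 h versus 2 h in WT were -5.48 for PGK1, -6.08 for ENO1, -5.19 for GPM1 and -2.09 for PFK2. FBA1 and TDH3 hold a Rap1 core with no Gcr1 core near it, and TPI1, CDC19, PGI1 and PFK1 have no match to the Rap1 letters in this window. Letters are from the S288C reference and not from SK1, and a match is not a bound site.

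After the collapse WT cells regained a little of these mRNAs for a short time. Of the 9 genes, 5 were higher at 5 h than at 3 h, where 24.4% of all genes were called higher, and 0 were lower. They were the 3 central enzymes PGK1 (2.09 ± 0.42, edgeR adjusted p = 5.45e-05), TPI1 (1.78 ± 0.35, adjusted p = 3.87e-05) and FBA1 (1.64 ± 0.44, adjusted p = 0.00176), with the mutase gene GPM1 (1.54 ± 0.38, adjusted p = 0.000784) and PFK1 (1.06 ± 0.23, adjusted p = 0.0002). PGK1 had 177, 218 and 214 CPM in the WT libraries at 5 h, against 57.0, 42.8 and 43.6 CPM at 3 h, and the times did not overlap. This regain stayed far below the starting level, which for PGK1 was 5057, 5031 and 5655 CPM at 0 h. PGI1 and CDC19, at the ends of the pathway, were not called (-0.29 ± 0.31 and 0.41 ± 0.29). Without WT replicate 2 FBA1 was not called (1.32, edgeR adjusted p = 0.0549), and without replicate 1 ENO1 was (0.97, adjusted p = 0.032). The mutants also held more at 5 h than at 3 h, though this was not tested in them. The 9 genes held 0.278% of all counts in ime4 at 5 h, against 0.165% at 3 h, and 0.321% in pho92, against 0.178%. In WT the shares were 0.170% and 0.0919%. At 6 h they were 0.252% in ime4, 0.238% in pho92 and 0.0664% in WT.

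By 6 h the regain in WT was gone again for most of the group. In WT 6 of the 9 genes were lower at 6 h than at 5 h, where 42.1% of all genes were called lower, and 1 was higher, where 33.6% were. PGK1 had 58.7, 62.7 and 83.8 CPM at 6 h, against 177, 218 and 214 CPM at 5 h (log2 fold change -1.57 ± 0.41, edgeR adjusted p = 0.000799), and FBA1 had 95.5, 110.4 and 146 CPM, against 267, 381 and 362 CPM (log2 fold change -1.52 ± 0.44, edgeR adjusted p = 0.00204). The later libraries were all below the earlier ones for both. TPI1 (-1.34), GPM1 (-1.19), PGI1 (-1.13) and CDC19 (-0.89) fell with them, while ENO1 and PFK2 were not called (-0.26 ± 0.35 and -0.06 ± 0.21). CDC19 was not called without WT replicate 1 (-0.75, edgeR adjusted p = 0.0745). On total counts the split was 0 higher and 8 lower, in which ENO1 and PFK2 joined the lower genes and PFK1 was not called. The median of all genes on that scale was -1.04.

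PFK1 took a course of its own from 5 h on. In WT it had 167, 144 and 136 CPM at 3 h, 319.9, 301 and 310.4 at 5 h, 657, 367 and 355 at 6 h, 939.5, 719 and 836 at 7 h and 129, 100.4 and 146 at 9 h. The 7 h libraries were thus all above those of 3 and 5 h, and the 9 h libraries were back within or below the range of 3 h. The changes were 0.57 ± 0.23 for 6 h versus 5 h (edgeR adjusted p = 0.0263), 0.86 ± 0.23 for 7 h versus 6 h (adjusted p = 0.00169) and -2.73 ± 0.25 for 9 h versus 7 h (adjusted p = 8.66e-14). Across the step to 7 h, where 27.8% of all genes were called higher and 32.0% lower, PFK1 was the 1 gene of the 9 that was higher and PFK2 the 1 that was lower (-0.54 ± 0.21, edgeR adjusted p = 0.0274; not called with DESeq2's size factors, at -0.44). Without any 1 of the WT replicates PFK2 was not called either, at -0.62 to -0.39. The first of the steps of PFK1 leaned on WT replicate 1, which held 657 CPM at 6 h: without it the 6 h versus 5 h change was 0.23 (edgeR adjusted p = 0.452). Its call for 7 h versus 6 h was not kept in every such run either. With 1 replicate left out at a time, 0 to 1 of the 9 genes were called there.

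Whether PFK1 rose at all after 5 h depends on the scaling. On total counts its WT means were 358 CPM at 5 h, 284 at 6 h and 332.5 at 7 h, against 570 at 0 h. Scaling by total counts alone shifts the median of all genes by -0.86 for 6 h versus 5 h, by -0.67 for 7 h versus 6 h and by 0.98 for 9 h versus 7 h. The scaling factors of the WT libraries at 7 h were 0.387, 0.403 and 0.412, so their counts are scaled up most. On total counts PFK1 changed by -0.33 for 6 h versus 5 h (edgeR adjusted p = 0.0966) and by 0.23 for 7 h versus 6 h (adjusted p = 0.285), neither of them called, and the 9 genes split into 0 higher and 6 lower for 7 h versus 6 h. Relative to the other genes of the pathway the comparison does not depend on the scaling, since it can be made within each library.

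The ratio of PFK1 to PFK2 counts per base was close to 1 early and then moved apart. It was 1.13, 1.03 and 0.963 in the 3 WT libraries at 3 h, 1.60, 1.59 and 1.63 at 5 h, 3.28, 2.14 and 1.91 at 6 h, 8.40, 5.68 and 5.70 at 7 h and 1.99, 4.01 and 5.49 at 9 h. The libraries of 7 h lay above all those of 3 h, with a mean of 6.59 ± 1.56 against 1.04 ± 0.0832 (SD, n = 3 each; two-sided exact permutation p = 0.1, the smallest that 3 against 3 libraries allow). The ratio was chosen after its values were seen, and 5 comparisons of it were made. In ime4 cells the ratio was still 1.34, 1.43 and 1.47 at 7 h, below all WT libraries of that time (1.41 ± 0.0681 in ime4 against 6.59 ± 1.56 in WT, exact permutation p = 0.1), and reached 3.83, 3.46 and 5.05 at 9 h. In pho92 cells it was 4.67, 3.14 and 2.43 at 7 h, again below all WT libraries (3.41 ± 1.14 in pho92 against 6.59 ± 1.56 in WT, exact permutation p = 0.1), and 9.71, 13.5 and 8.59 at 9 h, above all WT libraries of 9 h (10.6 ± 2.58 in pho92 against 3.83 ± 1.76 in WT, exact permutation p = 0.1). At 9 h ime4 and WT overlapped (4.12 ± 0.834 in ime4 against 3.83 ± 1.76 in WT, exact permutation p = 1). NDT80, given as a gauge of progress, averaged 3271 CPM in ime4 and 2498 CPM in pho92 at 9 h, against 1014 CPM in WT, and its part in the ratio was not tested. Both subunits are parts of the same enzyme, which assembles from PFK1 and PFK2 proteins in equal numbers.

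**Figure D3:**
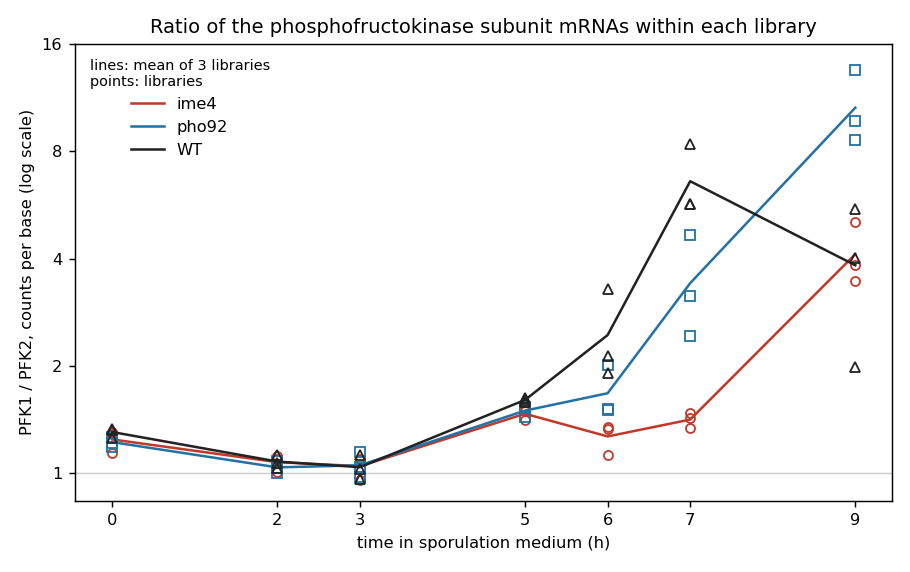
Ratio of PFK1 to PFK2 counts per base of gene model (y, log scale) against time in sporulation medium in hours (x), with lines through the mean of 3 libraries and points for single libraries of ime4, pho92 and WT. The strains lie together near 1 at 2 and 3 h; at 7 h the means are 1.41 in ime4, 3.41 in pho92 and 6.59 in WT.

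Across the 21 strain and time means of log2 CPM, which include the large fall between 2 and 3 h, the profiles of the other genes were much alike. Steps after the fall still differed: for WT 5 h versus 3 h PGK1 changed by 2.09 and PGI1 by -0.29. Pearson correlations among the 7 genes other than the phosphofructokinase subunits ran from 0.93 to 0.995, with FBA1 and TPI1 the closest pair. PFK2 correlated with those 7 at 0.74 to 0.86, and PFK1 with the 8 others at 0.28 to 0.52, the highest being PFK2. Among all other genes tested, the 8 most like the mean of the 9 profiles over these 21 means were TDH1 (0.978), PMA1, YGP1, HSP150, PDC1, ATG41, ASN1 and GOR1 (0.960). TDH1 encodes a glyceraldehyde-3-phosphate dehydrogenase and PDC1 pyruvate decarboxylase, which takes pyruvate towards ethanol. Spearman's correlations of these 8 ran from 0.78 (PDC1) to 0.96 (YGP1), and a ranking by Spearman's correlation gave mostly other genes. These means share their libraries and scaling, so the correlations are descriptions.

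At the end of the WT course the group stood far below its start. All 9 genes were lower at 9 h than at 0 h, where 40.7% of all genes were called lower, with a median log2 fold change of -5.98. GPM1 had 60.7, 32.8 and 27.8 CPM at 9 h, against 4791, 5404 and 5636 CPM at 0 h (-7.03 ± 0.48, edgeR adjusted p = 7.3e-18), and PFK1 had 129, 100.4 and 146 CPM, against 503, 743 and 628 CPM (-2.32 ± 0.24, edgeR adjusted p = 6.14e-12). No library of 9 h reached those of 0 h. Against 3 h, 2 of the 9 genes were higher at 9 h, where 38.4% of all genes were, and 3 were lower, where 42.1% were. PFK2 (-1.88 ± 0.22, edgeR adjusted p = 1.14e-10), PGI1 (-1.63 ± 0.33, adjusted p = 1.68e-05) and CDC19 (-1.12 ± 0.29, adjusted p = 0.000578) were the lower ones. Scaled by total counts, where the median of all genes was -0.87, the 9 genes split into 1 higher and 5 lower. Factors computed without the pathway genes gave 1 higher and 3 lower.

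Both higher calls leaned on 1 library. ENO1 had 335, 88.1 and 74.9 CPM in WT replicates 1, 2 and 3 at 9 h, against 58.9, 41.5 and 42.3 CPM at 3 h (log2 fold change 1.81 ± 0.36, edgeR adjusted p = 1.33e-05), and PGK1 had 180.1, 43.2 and 38.7 CPM, against 57.0, 42.8 and 43.6 CPM (0.87 ± 0.41, adjusted p = 0.0482). Without WT replicate 1 at 9 h the values were 0.79 for ENO1 (edgeR adjusted p = 0.0205) and -0.21 for PGK1 (adjusted p = 0.634). For 9 h versus 7 h, where 35.5% of all genes were called higher and 46.0% lower, PFK1 and PFK2 were lower and ENO1 and PGK1 higher. ENO1 stood at 1.47 and PGK1 at 0.95 there, and at 0.45 and -0.14 without that library, neither of them called. Total counts alone, where the median of all genes was 0.71, gave 6 higher and 2 lower. DESeq2's size factors in edgeR gave 1 higher and 2 lower, as did factors computed without the pathway genes. FBA1 was high in the same library, with 309, 91.3 and 89.0 CPM in replicates 1, 2 and 3. PFK2 was as well, with 62.9, 24.3 and 25.8 CPM, and its log2 fold change for 9 h versus 7 h was -2.31 without that library in place of -1.73. Against 0 h it left PGK1 at -6.99 in place of -5.91 and ENO1 at -6.72 in place of -5.71.

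The mutants were compared with WT at each time, and differences before copper were few. At 0 h 0 of the 9 genes were called in ime4 by edgeR, where 0.258% of all genes were, and 0 in pho92, where 18.1% were. DESeq2 called 0 in each as well, and the numbers at an unadjusted p under 0.05 were 0 in ime4 and 2 in pho92. FBA1 had 9854, 10055 and 11152 CPM in ime4 cells and 10431, 10759.9 and 9157 CPM in pho92 cells, against 9949, 9728 and 11132 CPM in WT cells, and the ranges of all strains overlapped. The largest difference at 0 h was that of CDC19 in pho92, with 2559, 2510.5 and 1739.5 CPM in pho92 cells, against 2872, 4147 and 3697 CPM in WT cells (-0.65 ± 0.29, edgeR adjusted p = 0.111). At 2 h 1 gene was called in ime4, where 5.67% of all genes were higher: CDC19 had 1668, 2606 and 1843 CPM in ime4 cells, against 1077, 833 and 1249 CPM in WT cells (0.95 ± 0.29, edgeR adjusted p = 0.0205), with no overlap. The call was lost without WT replicate 1 (0.98) or 2 (0.82) and without ime4 replicate 2 (0.74). In pho92 0 of the 9 genes were called at 2 h by edgeR at the adjusted threshold, where 12.4% of all genes were. DESeq2 called 0 as well. At an unadjusted p under 0.05 the number was 1, a threshold for which no share of all genes is given. Without the low replicate 1 of pho92 at 2 h, CDC19 was called higher (1.12, edgeR adjusted p = 0.00379).

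At 3 and 5 h the called genes were all higher in the mutants. In ime4 cells 3 genes were higher at 3 h, where 14.8% of all genes were: TPI1 (1.15 ± 0.34, edgeR adjusted p = 0.00966), FBA1 (1.12 ± 0.44, adjusted p = 0.045) and GPM1 (1.02 ± 0.38, adjusted p = 0.0349). FBA1 had 195, 346 and 164 CPM in ime4 cells, against 131, 65.6 and 127 CPM in WT cells, so the groups did not overlap, and it was not called on total counts (1.25, adjusted p = 0.0513). Without WT replicate 2 or ime4 replicate 2, 0 of the 9 were called in ime4 at 3 h, with TPI1 at 0.97 and 0.61. In pho92 cells 4 genes were higher at 3 h, where 10.3% of all genes were: TPI1, FBA1, GPM1 and ENO1, at 1.33, 1.50, 1.36 and 1.20. All 4 calls needed pho92 replicate 3 at 3 h and were lost without it, at 0.69, 0.84, 0.76 and 0.62, with edgeR adjusted p from 0.245 to 0.321; without WT replicate 2 they were lost too, with TPI1 at 1.12 (adjusted p = 0.0958). At 5 h PGI1 was the 1 gene higher in ime4 cells, where 23.4% of all genes were, and 0 were lower, where 26.0% were. It had 59.6, 70.5 and 73.5 CPM in ime4 cells, against 31.9, 33.9 and 34.5 CPM in WT cells (1.02 ± 0.31, edgeR adjusted p = 0.00619). PGI1, FBA1, GPM1 and ENO1 were higher in pho92 cells at 5 h, where 17.3% of all genes were, between 0.90 and 1.15. FBA1 there had 555, 774 and 916 CPM in pho92 cells, against 267, 381 and 362 CPM in WT cells, with no overlap. Without WT replicate 2 or 3, or pho92 replicate 3, 0 of these calls remained, with FBA1 at 1.23, 1.18 and 0.99. Against WT at 5 h, total counts alone called 5 genes higher in each mutant, with the median of all genes at 0.26 in ime4 and 0.22 in pho92.

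The widest gap across the group came at 6 and 7 h. At 6 h 7 of the 9 genes were higher and 1 lower in ime4 cells, where 43.6% and 34.5% of all genes were, and 8 were higher in pho92 cells, where 37.8% were. The median log2 difference of the 9 genes was 1.58 in ime4 and 1.44 in pho92, beside 0.21 and 0.12 over all genes tested. PGI1 had 85.0, 90.0 and 86.9 CPM in ime4 cells and 40.9, 54.4 and 80.6 CPM in pho92 cells at 6 h, against 12.2, 14.7 and 18.9 CPM in WT cells (2.51 ± 0.33 for ime4, edgeR adjusted p = 4.66e-09, and 1.94 ± 0.33 for pho92, adjusted p = 1.89e-06). FBA1 had 431, 632 and 275 CPM in ime4 cells and 388, 477 and 725 CPM in pho92 cells, against 95.5, 110.4 and 146 CPM in WT cells (1.93 ± 0.45 for ime4, adjusted p = 0.000152, and 2.17 ± 0.45 for pho92, adjusted p = 4.66e-05). Neither mutant overlapped WT for either gene. CDC19 stood at 1.58 and 1.39, PGK1 at 1.76 and 1.86, GPM1 at 1.77 and 1.81 and TPI1 at 1.17 and 1.44, each in ime4 and pho92 in turn. ENO1 had the same value in both, 0.83, and was not called with DESeq2's size factors in edgeR (adjusted p = 0.056 in ime4 and 0.0561 in pho92). It was also not called without WT replicate 2 (0.84 in ime4 and 0.85 in pho92). PFK2 had 293, 234 and 234 CPM in pho92 cells, against 195, 167 and 181 CPM in WT cells (0.49 ± 0.21, adjusted p = 0.0372), and its call was lost without WT replicate 2 (0.43) or 3 (0.50) and without pho92 replicate 1 (0.37) or 2 (0.54). It was also lost with DESeq2's size factors in edgeR (0.40, edgeR adjusted p = 0.0908) and in DESeq2 itself (adjusted p = 0.0816). Total counts alone, which shift the median of all genes by 1.14 in ime4 and 0.85 in pho92, gave 9 higher and 0 lower in ime4 and 9 higher and 0 lower in pho92. The median of all genes on that scale was itself 1.35 in ime4 and 0.97 in pho92. The comparisons of ime4 and of pho92 share the WT libraries.

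PFK1 went the other way in ime4 cells at these times. It had 212, 344 and 262 CPM in ime4 cells and 1340.2, 1006 and 635 CPM in pho92 cells at 7 h, against 939.5, 719 and 836 CPM in WT cells. The ime4 libraries were all below the WT ones, while those of pho92 lay on both sides. PFK1 was lower in ime4 cells at 6 h (-0.66 ± 0.23, edgeR adjusted p = 0.00949) and at 7 h (-1.61 ± 0.24, adjusted p = 4.38e-08) and was not called in pho92 cells (-0.05 ± 0.23 and 0.26 ± 0.23). On total counts, which shift the median of all genes by 1.78 for ime4 at 7 h, PFK1 in ime4 cells stood at 0.17 at 7 h (adjusted p = 0.397) and 0.53 at 6 h (adjusted p = 0.00888), so its direction turns with the scaling. WT replicate 1 and ime4 replicate 3 each decided the call at 6 h, which was lost when either was left out (-0.32, adjusted p = 0.25, and -0.51, adjusted p = 0.0871). The authors' deposited table gives PFK1 at -1.78 (adjusted p = 4.76e-14) for ime4 at 7 h.

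In ime4 cells at 7 h 7 of the 9 genes were higher and 1 lower, where 44.9% and 37.5% of all genes were, and in pho92 cells 7 were higher, where 34.7% were. PGI1 had 80.2, 87.2 and 55.8 CPM in ime4 cells and 24.4, 30.4 and 56.6 CPM in pho92 cells, against 10.7, 10.7 and 13.4 CPM in WT cells (2.68 ± 0.34 for ime4, edgeR adjusted p = 1.46e-09, and 1.68 ± 0.34 for pho92, adjusted p = 3.71e-05), with no overlap. CDC19 stood at 1.62 ± 0.30 in ime4 (adjusted p = 3.18e-06) and 1.24 ± 0.30 in pho92 (adjusted p = 0.000336). For the middle enzymes in ime4 the calls leaned on replicate 2: FBA1 had 140.5, 489 and 131 CPM in ime4 replicates 1, 2 and 3, against 95.3, 101 and 93.6 CPM in WT cells. Without that library FBA1 stood at 0.49, PGK1 at 0.64, GPM1 at 0.53, TPI1 at 0.65 and PFK2 at 0.39, none of them called (edgeR adjusted p from 0.0957 to 0.299), and PGI1, CDC19 and PFK1 were the 3 calls left. PFK2 in ime4 was not called with DESeq2's size factors either (0.40, edgeR adjusted p = 0.0795), nor by DESeq2 (adjusted p = 0.0714). ENO1 was not called in either mutant, at 0.30 in ime4 (edgeR adjusted p = 0.423) and 0.54 in pho92 (edgeR adjusted p = 0.179). On total counts the 7 h split was 8 higher and 0 lower in ime4 cells and 9 higher and 0 lower in pho92 cells. The median of all genes on that scale was itself 1.98 in ime4 and 0.90 in pho92. In pho92 FBA1 had 237, 355 and 494 CPM at 7 h and PFK2 279, 311 and 254 CPM, each above all WT libraries, which had 109, 123 and 142 CPM of PFK2 (1.90 ± 0.45 for FBA1, edgeR adjusted p = 0.000289, and 1.18 ± 0.21 for PFK2, adjusted p = 8.35e-06).

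**Figure D4:**
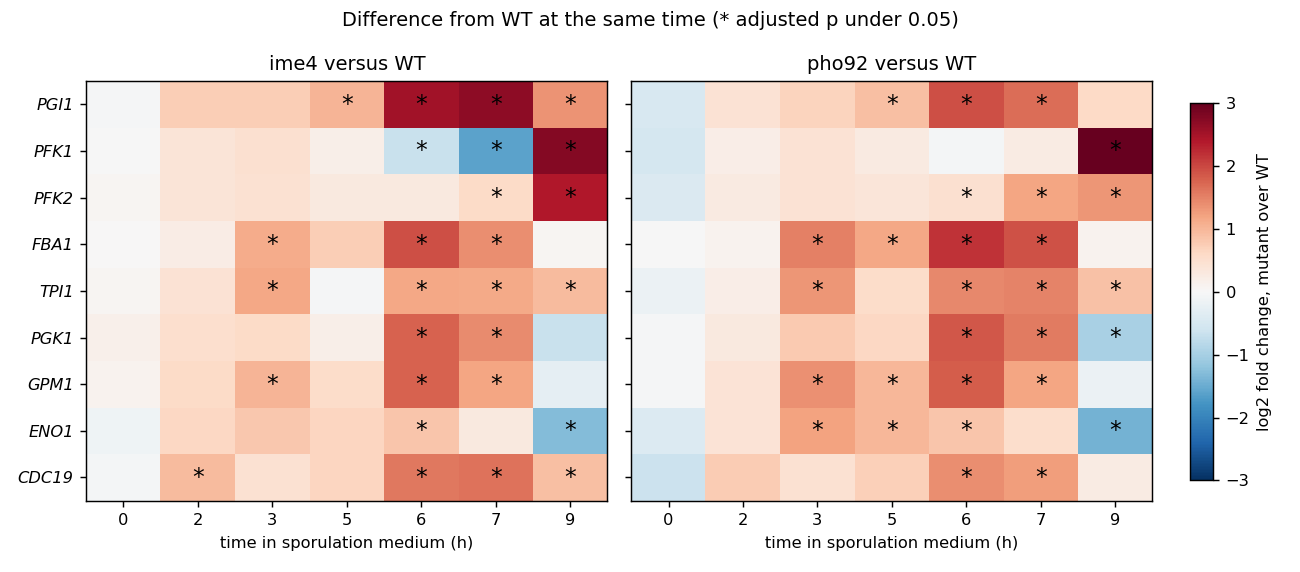
Log2 fold change of ime4 (left) and pho92 (right) over WT at each time in hours (x) for the 9 genes (y), on a colour scale with an asterisk where the edgeR adjusted p was under 0.05. Most cells are red at 6 and 7 h, PFK1 is blue in ime4 at 7 h (-1.61, a direction that turns on total counts) and red in both mutants at 9 h (2.75 in ime4 and 2.99 in pho92).

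At 9 h both phosphofructokinase genes were higher in the mutants. PFK1 had 760.1, 747 and 1018 CPM in ime4 cells and 726, 1086 and 1158 CPM in pho92 cells, against 129, 100.4 and 146 CPM in WT cells, and PFK2 had 193, 210 and 196 CPM in ime4 cells and 72.6, 78.1 and 131 CPM in pho92 cells, against 62.9, 24.3 and 25.8 CPM in WT cells. Every mutant library was above every WT library for both genes. PFK1 was higher by 2.75 ± 0.25 in ime4 (edgeR adjusted p = 8.08e-14) and 2.99 ± 0.25 in pho92 (adjusted p = 2.64e-13), and PFK2 by 2.40 ± 0.22 (adjusted p = 2.1e-13) and 1.32 ± 0.22 (adjusted p = 1.96e-06). In all, 5 genes were higher and 1 lower in ime4 cells, where 46.9% and 33.3% of all genes were, and 3 were higher and 2 lower in pho92 cells, where 32.4% and 24.8% were. The lower ones were ENO1 in both mutants (-1.31 in ime4 and -1.42 in pho92) and PGK1 in pho92 (-0.97). Without WT replicate 1 at 9 h these calls were lost, with ENO1 at -0.26 and -0.41 and PGK1 at 0.10, PFK2 in ime4 stood at 3.01, and PGI1 in pho92 was called higher (1.07, edgeR adjusted p = 0.0133). Without that replicate at all times FBA1 in ime4 was called higher as well (1.04, edgeR adjusted p = 0.049). PGK1 in pho92 was not called without pho92 replicate 1 (-0.65) or 2 (-0.84) either. TPI1, called higher in ime4 (0.95) and in pho92 (0.89), was not called without WT replicate 2 (0.89 in ime4 and 0.77 in pho92), ime4 replicate 2 (0.63) or pho92 replicate 3 (0.39). CDC19, higher in ime4 at 0.90, was not called without ime4 replicate 2 (0.62). For pho92 at 9 h total counts alone, where the median of all genes was -0.38, gave 2 higher and 2 lower. Factors computed without the pathway genes gave 3 higher and 1 lower.

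Within the mutants the later course was tested in the same way. In ime4 cells 1 gene was higher at 9 h than at 3 h, where 33.5% of all genes were, and 2 were lower, where 46.2% were; in pho92 cells 1 was higher, where 37.9% were, and 7 lower, where 41.6% were. The higher gene was PFK1 in each, with 760.1, 747 and 1018 CPM in ime4 at 9 h, against 169, 244 and 207 CPM at 3 h (2.02 ± 0.24, edgeR adjusted p = 3.07e-10), and 726, 1086 and 1158 CPM in pho92 at 9 h, against 202, 182 and 223 CPM at 3 h (2.29 ± 0.24, adjusted p = 9.02e-12). The 9 h libraries of both mutants lay above those of 3 h. On total counts these changes of PFK1 were 0.92 in ime4 and 0.95 in pho92, and PFK1 in WT was called lower at 9 h (-1.05, edgeR adjusted p = 3.09e-06). Of the 7 lower genes in pho92, TPI1, PGK1, GPM1 and ENO1 were not called without replicate 3 at 3 h (-0.15, -0.33, -0.22 and -0.24), and TPI1, PGK1 and GPM1 were not called without pho92 replicate 1 (-0.76, -0.80 and -0.89) or 2 (-0.92, -0.94 and -0.80). The lower genes in ime4 were PGI1 (-1.02) and CDC19 (-0.67), and CDC19 was not called without any 1 of the ime4 replicates (-0.72, -0.62 and -0.62). With total counts alone these were 1 higher and 8 lower in ime4 and 1 higher and 8 lower in pho92. The median of all genes on that scale was -1.33 in ime4 and -1.40 in pho92. DESeq2's size factors in edgeR gave 1 higher and 1 lower in ime4 and 1 higher and 3 lower in pho92. The difference between mutant and WT in the change between 3 and 9 h was called for 5 genes in ime4, where 73.4% of all genes were, and for 5 in pho92, where 50.1% were; in both these were PFK1, PFK2, PGK1, GPM1 and ENO1. An F test over the 7 times called all 9 genes as differing from WT in their course in ime4, where 96.3% of all genes were, and all 9 in pho92, where 90.6% were. These shares of the members are near or below those of all genes, so nothing particular to the group is read from them. In ime4 the F test called 5 of the 9 without WT replicate 1.

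The paralogs and regulators of the same steps did not all follow. Of 11 such genes tested, 2 were higher and 7 lower at 3 h than at 2 h in WT, where 36.3% and 29.3% of all genes were, with a median log2 fold change of -0.56. TDH1, for glyceraldehyde-3-phosphate dehydrogenase, had 66.9, 58.0 and 62.3 CPM at 3 h, against 2302, 2347 and 2832 CPM at 2 h (-5.32 ± 0.38, edgeR adjusted p = 4.02e-16), though 15.7% of its 50-base stretches occur elsewhere in the genome. HXK1, a hexokinase, had 63.1, 95.0 and 66.3 CPM at 3 h, against 875, 911 and 749.5 CPM at 2 h (-3.50 ± 0.28, edgeR adjusted p = 1.21e-14). The minor pyruvate kinase gene PYK2 had fallen before, with 37.6, 42.9 and 49.8 CPM at 2 h, against 278, 372 and 333 CPM at 0 h (-2.91 ± 0.14, edgeR adjusted p = 4.06e-22). For all 3 genes the libraries of the times compared did not overlap. TDH2 and ENO2 were not analysed here.

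EMI2, a paralog of the glucokinase gene GLK1, rose late in WT. It had 125, 116 and 101 CPM in WT at 3 h, 1333, 609.8 and 448 at 5 h, 11297, 7442 and 5081 at 6 h, 29156, 22517 and 21749.7 at 7 h and 16826, 20074 and 24455 at 9 h. At 7 h it had 479.9, 327 and 1151 CPM in ime4 cells and 9846, 6447 and 3153 CPM in pho92 cells (-5.23 ± 0.48 for ime4 over WT, edgeR adjusted p = 1.74e-13, and -1.92 ± 0.42 for pho92, adjusted p = 0.000115). By 9 h it had 7961, 6356 and 12656 CPM in ime4 cells and 16940.4, 19399 and 14899 CPM in pho92 cells, above their own 7 h levels. FBP26, a fructose 2,6-bisphosphatase that lowers an activator of phosphofructokinase, had 1605, 1636 and 1309 CPM in WT at 6 h, against 523, 287 and 275 CPM at 5 h (2.07 ± 0.25, edgeR adjusted p = 1.03e-09), with no overlap. In ime4 cells it was lower than in WT at 6 h (-2.69 ± 0.25, adjusted p = 4.53e-13) and higher at 9 h (2.19 ± 0.25, adjusted p = 6.57e-11). At 6 h 3 of these 11 genes were higher and 8 lower in ime4 cells than in WT, where 43.6% and 34.5% of all genes were. Of the 9 glycolytic enzyme genes 7 were higher and 1 lower, and the difference between the lists was not tested.

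**Figure D5:**
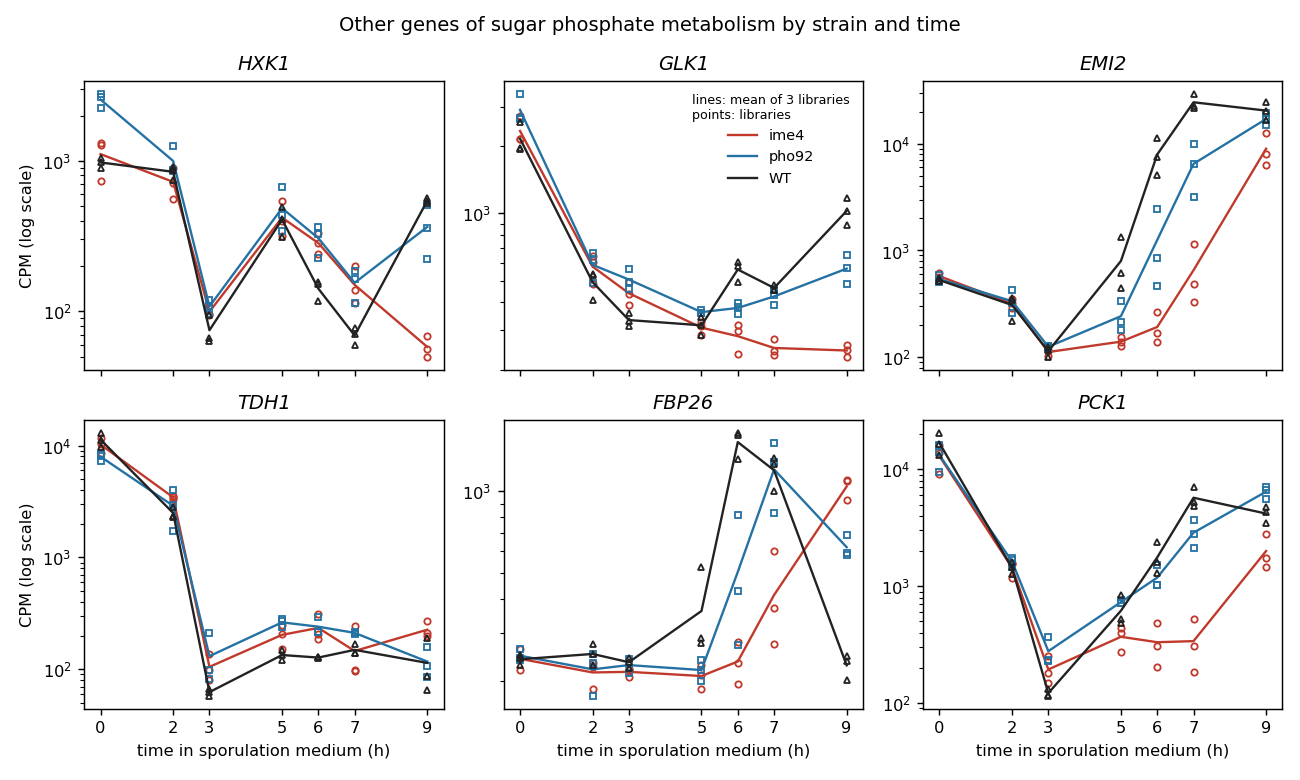
CPM (y, log scale) of HXK1 and GLK1 (hexose phosphorylation), EMI2, TDH1, FBP26 and PCK1 against time in sporulation medium in hours (x), with lines through the mean of 3 libraries and points for single libraries of ime4, pho92 and WT. EMI2 reaches 24474 CPM in WT at 7 h, when it is at 653 CPM in ime4 and 6482 CPM in pho92.

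The genes on either side of the pathway were read in the same fits. Of 5 genes of gluconeogenesis, 0 were higher and 4 lower at 3 h than at 2 h in WT, where 36.3% and 29.3% of all genes were, and of 12 genes of ethanol formation and use 1 was higher and 9 lower. FBP1, which reverses the phosphofructokinase step, had 25.4, 23.3 and 28.4 CPM at 3 h, against 313, 376 and 374 CPM at 2 h (-3.78 ± 0.24, edgeR adjusted p = 1.25e-17), and 96.8, 72.9 and 73.5 CPM at 9 h. PCK1, whose enzyme is part of the bypass of pyruvate kinase, had 133, 116 and 116 CPM in WT at 3 h, 2373, 1614 and 1307 at 6 h and 7015, 5279 and 4856 at 7 h. At 9 h, tested against 3 h, the log2 fold change of PCK1 in WT was 5.11 ± 0.37 (edgeR adjusted p = 4.72e-17). PCK1 was lower in ime4 cells than in WT at 7 h, with 186, 524 and 306 CPM in ime4 cells (-4.08 ± 0.35, edgeR adjusted p = 2.25e-14). PDC1 had 75.5, 71.5 and 77.0 CPM at 3 h, against 1368, 1184 and 1372 CPM at 2 h (-4.13 ± 0.35, edgeR adjusted p = 5.04e-14), and ADH2, the alcohol dehydrogenase that uses ethanol, 719, 516 and 896 CPM, against 15668, 17438 and 19473 CPM (-4.62 ± 0.35, adjusted p = 2.77e-15), beside a median of -4.96 over the 9 glycolytic enzyme genes.

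The transcription factors of the glycolytic genes moved in both directions in the hour after copper, with 3 of 6 higher and 3 lower in WT, where 36.3% and 29.3% of all genes were. TYE7, an activator of glycolytic genes, had 6.66, 6.03 and 7.98 CPM at 3 h, against 134, 104 and 116 CPM at 2 h (-4.09 ± 0.31, edgeR adjusted p = 2.43e-15), and GCR1 had 27.2, 26.4 and 25.6 CPM, against 71.2, 61.7 and 72.6 CPM (-1.38 ± 0.19, adjusted p = 2.75e-08). RAP1 was higher, with 359, 389 and 391 CPM at 3 h, against 102, 73.9 and 59.1 CPM at 2 h (2.27 ± 0.19, adjusted p = 4.11e-14). Later GCR1 rose in WT, by 1.80 ± 0.19 for 6 h versus 5 h (edgeR adjusted p = 1.15e-10). It had 43.2, 36.6 and 35.1 CPM in WT at 5 h and, past the step tested, 177, 216 and 223 CPM at 7 h. In ime4 cells at 7 h GCR1 had 29.5, 42 and 30.1 CPM, below all WT libraries (-2.60 ± 0.20, edgeR adjusted p = 6.7e-16).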

How the data were processed

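Poly(A)-selected stranded libraries from 63 samples were sequenced as 50-nt single reads. Per the submitters' processing notes, bcl2fastq 2.17.1.14, TopHat2 2.0.14 with Bowtie, HTSeq 0.6.1, R 3.5.1 and DESeq2 1.22.1 were used; the sources used here name neither the SK1 genome build nor the strand setting of the counting. The authors deposited raw read counts per gene, a normalized signal, the same signal per kb, and log2 fold changes of mutant over WT at each time with their raw and adjusted p-values. Of these, the counts were tested, and the authors' log2 fold changes and p-values are quoted by name only. The fit used edgeR 4.0.16 in R 4.3.3: TMM factors, a filter on low counts (filterByExpr by group, minimum count 10), 1 mean for each of 21 groups over all 63 libraries, the quasi-likelihood test, and Benjamini-Hochberg adjustment over the 5822 genes tested, called at 0.05. CPM are counts per 1000000 of the TMM-scaled library size, and per kb uses the deposited gene length. Library totals lie between 12826747 and 33048881 counts; replicate pairs differed by more than counting noise (chi-square per degree of freedom 9.70 to 665). The labels call the replicates biological and give no further source, so p-values measure the spread between these samples. DESeq2 1.42.0, other scalings and filters and left-out libraries were alternatives, and the fit was tested on simulated data. Gene starts in the table equal those of R64 for 99.928% of 5575 matched genes, so R64 gives positions and promoter letters. The members and the gene lists were chosen with earlier results of these data known. Beyond the 9 members, up to 4 called genes of a list with the smallest adjusted p were named for a comparison, with paralogs of the members always open to naming; other names were chosen after their values were seen.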

Additional observations from a re-analysis of the deposited data

Results flagged for a closer look

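The change between 3 and 9 h differed between a mutant and WT for 5 genes, by edgeR's test of the difference itself (mutant change minus WT change, log2). Of all genes tested, 73.4% were called in ime4 and 50.1% in pho92, so nothing particular to the group is read from this count. For PFK1 the difference was 2.28 in ime4 (edgeR adjusted p = 5.35e-08) and 2.55 in pho92 (adjusted p = 5.9e-08). PFK1 was called higher at 9 h than at 3 h in both mutants, and in WT it was not called with TMM factors (-0.26) and called lower on total counts (-1.05). The differences were 1.97 in ime4 and 1.99 in pho92 on that scale. For PFK2 the difference with TMM factors was 1.94 in ime4 (adjusted p = 2.06e-07) and 0.89 in pho92 (adjusted p = 0.0126); in pho92 it was not called without WT replicate 2 (0.71) or 3 (0.74) or pho92 replicate 3 (0.62). ENO1 differed by -2.11 in ime4 and -2.62 in pho92, GPM1 by -1.30 and -1.53, and PGK1 by -1.24 and -1.75, each in ime4 and pho92 in turn. Without WT replicate 1 at 9 h PGK1 stood at -0.14 in ime4 and -0.67 in pho92 and GPM1 at -0.87 and -1.12, none of them called. ENO1 stood at -1.06 (edgeR adjusted p = 0.0239) in ime4 and -1.61 (adjusted p = 0.00195) in pho92, and PFK1 at 2.32 and 2.55. In ime4 PGK1 was also not called without WT replicate 2 (-1.43) or any 1 ime4 replicate (-1.28, -1.30 and -1.26), nor GPM1 without WT or ime4 replicate 2 (-1.31 and -1.20). Without WT replicate 1 at 9 h PGI1 in ime4 was called (1.11, adjusted p = 0.0298). Without pho92 replicate 3 at 3 h, PGK1 (-1.20) and GPM1 (-0.92) were not called in pho92. Total counts alone, where the median of all genes was -0.46, gave 1 higher and 4 lower in pho92, against 2 higher and 3 lower with TMM factors. In ime4, DESeq2's size factors in edgeR gave 2 higher and 2 lower. The strains were not in step at 9 h (NDT80 at 3271 CPM in ime4 and 2498 CPM in pho92, against 1014 CPM in WT), and the part of progress in these differences was not tested.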

How the results depend on the processing

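Each of 270 values of a gene in a comparison was recomputed under up to 23 alternatives, 4 of them (leaving out single libraries that stood apart) chosen after seeing the data. Of 4140 recomputed values, 3770 kept their direction and side of the threshold, 256 lost the call, 99 gained it and 15 turned round. The fall of all 9 genes at 3 h was called under every alternative run, in all 3 strains. Total counts alone turned PFK1 to -0.33 for WT 6 h versus 5 h, to 0.53 and 0.17 for ime4 against WT at 6 and 7 h and to 0.79 for pho92 against WT at 6 h, PFK2 to -1.01 for ime4 9 h versus 3 h and CDC19 to 0.87 for WT 9 h versus 7 h. PGK1 turned without WT replicate 1 at all times, replicate 1 of all strains, and WT replicate 1 at 9 h, in that order: -0.32, -0.33 and -0.14 for WT 9 h versus 7 h, -0.16, -0.14 and -0.21 for WT 9 h versus 3 h, and 0.19, 0.43 and 0.10 for pho92 against WT at 9 h. Other replicates left out took it as far as 1.41, 1.20 and -1.90 in these comparisons, in the same order. With only the compared libraries in the fit, which changes the estimate of the spread, 9 genes were called for WT 5 h versus 3 h, 5 for WT 7 h versus 6 h, 3, 9 and 6 for ime4 against WT at 2, 3 and 5 h, and 1, 7, 7 and 3 for pho92 against WT at 0, 3, 5 and 9 h. Total counts alone called 6 for WT 7 h versus 6 h, 8 for WT 9 h versus 7 h, 9 for ime4 9 h versus 3 h and 5 for ime4 against WT at 5 h. DESeq2's size factors in edgeR called 1 for WT 7 h versus 6 h, as did DESeq2, and 4 for pho92 9 h versus 3 h. No share of all genes is given for these alternative fits, so the counts show how far the calls moved and nothing particular to the group. Without the 100 most abundant other genes in the total, the share of counts held by the 9 genes in WT was 5.21% at 0 h, 0.125% at 3 h and 0.104% at 9 h.

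Leaving out 1 replicate at a time, the number of genes called ran from 3 to 6 for WT 2 h versus 0 h, 0 to 1 for 7 h versus 6 h and 2 to 4 for 9 h versus 7 h, and from 4 to 5 for pho92 9 h versus 3 h. For ime4 against WT it ran from 0 to 2 at 2 h, 0 to 5 at 3 h, 0 to 1 at 5 h and 3 to 8 at 7 h. For pho92 against WT it ran from 0 to 2 at 0 h, 0 to 1 at 2 h, 0 to 5 at 3 h, 0 to 5 at 5 h and 3 to 5 at 9 h. For the difference in change between 3 and 9 h it ran from 3 to 6 in ime4 and 3 to 5 in pho92, and for the F test in ime4 from 4 to 9. The cause of these changes was not tested. Shares of all genes are not given beside these ranges either, so they describe the sensitivity of the calls alone. With the replicate number as a block, 267 of 270 values kept their side and 3 gained a call: PGI1 in ime4 at 3 h (0.74), CDC19 in pho92 at 5 h (0.70) and FBA1 in the pho92 change between 3 and 9 h (-1.48). Same-numbered libraries deviated together in every pair, with correlations of 0.12 or more, for 5 of 26 comparisons (range over all 26, -0.592 to 0.694). These 5 were 3 h versus 2 h in WT and in ime4, WT 6 h versus 5 h, and pho92 against WT at 5 and 6 h. The numbers were not taken as pairs in the main fit, so pairing in these 5 is allowed for only in the fit with the block. By Spearman's correlation 1 of the 8 genes most like the group in pattern was shared, and over 63 single libraries 7 were. With 3 libraries a group, the spread between libraries limits the precision.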

Other observations

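The pentose phosphate pathway branches off at glucose 6-phosphate, which PGI1 also uses, and makes ribose and reducing power. Of its 10 genes, 3 were higher and 7 lower at 3 h than at 2 h in WT, where 36.3% and 29.3% of all genes were. Between 7 and 9 h in WT, 7 were higher and 1 lower, beside 2 higher and 2 lower of the 9 glycolytic enzyme genes and 35.5% and 46.0% of all genes. RKI1, for ribose-5-phosphate isomerase, had 1.58, 1.87 and 1.69 CPM in WT at 3 h, 45.4, 28.4 and 22.7 at 7 h and 208, 234 and 241 at 9 h (2.81 ± 0.36 for 9 h versus 7 h, edgeR adjusted p = 1.54e-09). TKL2, a transketolase, had 1106, 950.4 and 799 CPM at 9 h, against 84.5, 18.1 and 9.91 CPM at 7 h (4.64 ± 0.46, adjusted p = 1.17e-12). Every 9 h library was above every 7 h library for both. Neither mutant had reached these levels at 9 h for RKI1, with 6.96, 6.13 and 10.4 CPM in ime4 cells and 108, 90.0 and 61.7 CPM in pho92 cells (-4.88 ± 0.41 for ime4 over WT, edgeR adjusted p = 6.82e-15). ZWF1, whose enzyme makes the first committed step, was higher at 9 h than at 7 h in WT by 1.26 ± 0.14 (adjusted p = 1.41e-11) and lower in ime4 cells than in WT at 9 h (-1.57 ± 0.14, adjusted p = 3.27e-14).

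The glycerol branch leaves glycolysis at the triose phosphates. All 4 of its genes were higher at 5 h than at 3 h in WT, where 24.4% of all genes were, with a median log2 fold change of 1.61, beside 5 of the 9 glycolytic enzyme genes with a median of 1.06 over the 9. The difference between the lists was not tested. GPD1, for glycerol-3-phosphate dehydrogenase, had 706, 623 and 627 CPM at 5 h, against 179, 167 and 157 CPM at 3 h (1.96 ± 0.16, edgeR adjusted p = 2.26e-13). In ime4 cells 3 of the 4 were lower than in WT at 5 h, where 26.0% of all genes were, and GPD1 had 314, 241 and 274 CPM (-1.24 ± 0.16, adjusted p = 1.23e-08).

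HXK1 differed before copper. It had 2774, 2651 and 2237 CPM in pho92 cells at 0 h, against 892, 983 and 1052 CPM in WT cells (1.39 ± 0.26, edgeR adjusted p = 5.91e-05), with no overlap. Of the 9 glycolytic enzyme genes 0 were called there, where 18.1% of all genes were.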
